A study of Mus musculus with 6 samples.

Results

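The genes described here lie on mouse chromosome 7 on both sides of Cd37, the tetraspanin gene deleted in CD37KO mice. They are 10 of the 19935 genes tested: Slc6a16, Dhdh, Zfp719, Pold1, Spty2d1, Napsa, 2410002F23Rik, Hps5, Irf3 and Fuz. They were picked for the size of their CD37KO minus WT difference in these same arrays, so that difference is given for each gene as a description and is not tested. Primary splenic B cells of 3 CD37KO mice (genotype Cd37 -/-) and 3 WT littermates were compared, with RNA of each mouse on 1 Affymetrix mouse gene array. The labels give all mice a C57BL/6J background and an age of 3 months, while the methods state an older range. The cells were enriched by removing those that carry CD43, and staining for B220, a B cell surface marker, served to judge purity. Levels are log2 values after RMA, a method that subtracts background, brings the arrays to a common distribution and combines the probes of a gene. Differences are CD37KO minus WT on that scale, and errors are SD over 3 mice unless a standard error is named.

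Genes that lie close together on a chromosome are inherited together. When a gene is disrupted in embryonic stem cells and the resulting mice are crossed to another strain, the stretch around the target can keep the DNA of the stem cell strain after many generations, and the animals then differ from their controls at neighbouring genes as well as at the target. Removing DNA or inserting a selection cassette can also alter transcription of the genes next to it. How the CD37KO line was made, and which strain its stem cells came from, was not given in the sources used here, and the Cd37 deletion and anything inherited with it cannot be told apart in these mice. The values are hybridization signals, so a different amount of RNA and a different sequence under the probes cannot be told apart either.

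The B cell identity of the isolates was read from 12 B cell markers, all above background in every array, with a mean log2 level of 11.65 to 11.68 in CD37KO and 11.65 to 11.73 in WT. The background level was 5.77, under which 95% of 1015 olfactory receptor genes lay. Markers of other cells were also detected. The mean of 18 neutrophil markers was 6.12 to 7.10 in CD37KO against 5.69 to 5.89 in WT, and that of 18 macrophage and monocyte markers 8.18 to 9.23 in CD37KO against 8.39 to 9.11 in WT. All 6 mice had the transcripts of males, with Xist not above background and Eif2s3y above it in every array. Cd37 itself was at 8.15, 8.17 and 8.17 in CD37KO against 11.99, 11.82 and 12.08 in WT. The 2 genotypes were thus far apart, and the CD37KO signal was still above background.

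The start of Cd37 faces away from that of Slc6a16. The 2 genes are annotated on opposite strands with no annotated gene between them, and their upstream sequences are shown first because this pair carries the largest differences in opposite directions. The upstream sequences of Irf3 and Pold1 follow, as the genes of this group with the best known roles in the nucleus. Each is the 250 bases before the annotated start, 5′ to 3′ on the strand of the gene, from RefSeq on GRCm38.p6. That build is not the build named for the arrays, and the coordinates serve only to place the sequences. Capitals mark exact matches on either strand to any of 4 motifs. The octamer ATTTGCAT is bound by OCT factors in B cells. The GC box, written GGGCGG, is bound by SP family factors that are found at many promoters. The TATA box, written TATAAA, places the start of transcription in a minority of genes. The core GGAAGT is bound by many ETS family factors, among them those of B cells.
Slc6a16, chr7:45240503-45240752, plus strand: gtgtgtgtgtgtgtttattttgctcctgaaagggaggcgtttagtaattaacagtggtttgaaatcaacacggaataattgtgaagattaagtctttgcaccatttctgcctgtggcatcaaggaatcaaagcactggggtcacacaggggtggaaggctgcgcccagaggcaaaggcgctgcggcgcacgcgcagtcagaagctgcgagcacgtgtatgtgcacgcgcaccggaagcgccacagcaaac
Cd37, chr7:45238840-45239089, minus strand: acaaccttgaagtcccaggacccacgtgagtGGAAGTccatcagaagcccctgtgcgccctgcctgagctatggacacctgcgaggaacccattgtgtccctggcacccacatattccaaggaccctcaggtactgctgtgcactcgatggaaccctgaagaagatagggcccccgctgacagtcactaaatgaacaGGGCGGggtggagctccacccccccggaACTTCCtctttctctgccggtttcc
Irf3, chr7:44997398-44997647, plus strand: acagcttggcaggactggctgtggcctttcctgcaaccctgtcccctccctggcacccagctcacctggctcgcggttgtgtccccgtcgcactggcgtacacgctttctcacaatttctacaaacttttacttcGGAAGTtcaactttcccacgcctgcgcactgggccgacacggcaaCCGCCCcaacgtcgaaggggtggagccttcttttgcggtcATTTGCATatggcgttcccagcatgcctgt
Pold1, chr7:44548816-44549065, minus strand: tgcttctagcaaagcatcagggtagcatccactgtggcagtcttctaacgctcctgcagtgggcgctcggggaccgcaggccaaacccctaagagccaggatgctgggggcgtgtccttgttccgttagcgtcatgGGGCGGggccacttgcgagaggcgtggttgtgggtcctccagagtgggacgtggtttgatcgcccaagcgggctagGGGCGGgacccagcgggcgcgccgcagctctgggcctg
Of the 10 genes, 8 had an upstream sequence in the table used. The octamer was in 1 of these 8, that of Irf3, and in 1.6% of all 32851 upstream sequences of this length. A GC box was in 5 of 8 against 32.7% of all, an ETS core in 4 of 8 against 19.7% of all, and the TATA box in 0 of 8 against 12.4% of all. Slc6a16 held none of the 4 motifs but 14 CG pairs, against a median of 6.0 over all sequences. Cd37 held 1 GC box and 2 ETS cores, Pold1 2 GC boxes, and Irf3 1 match each to the octamer, the GC box and the ETS core. A match is a stretch of letters and not a shown binding site.

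All 10 genes separated the genotypes completely: each CD37KO array was on the same side of each WT array in all 9 pairs. This held for 11.9% of all genes tested (4.33% with CD37KO higher and 7.57% with CD37KO lower). Among the 10 genes, 4 were higher in CD37KO B cells and 6 were lower. The gap between the genotypes was also wider than the range within either genotype for all 10, as it was for 0.878% of all genes. Since the genes were picked on this contrast, nothing is read from these shares. The median size of the difference was 0.64 over the 10 genes and 0.065 over all genes, and the median signed difference of all genes was -0.019. Within a genotype the SD ranged from 0.029, for Slc6a16 in CD37KO, to 0.21, for Dhdh in WT. In bulk RNA, fewer cells that express a gene and less RNA per cell cannot be told apart.

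**Figure D1:**
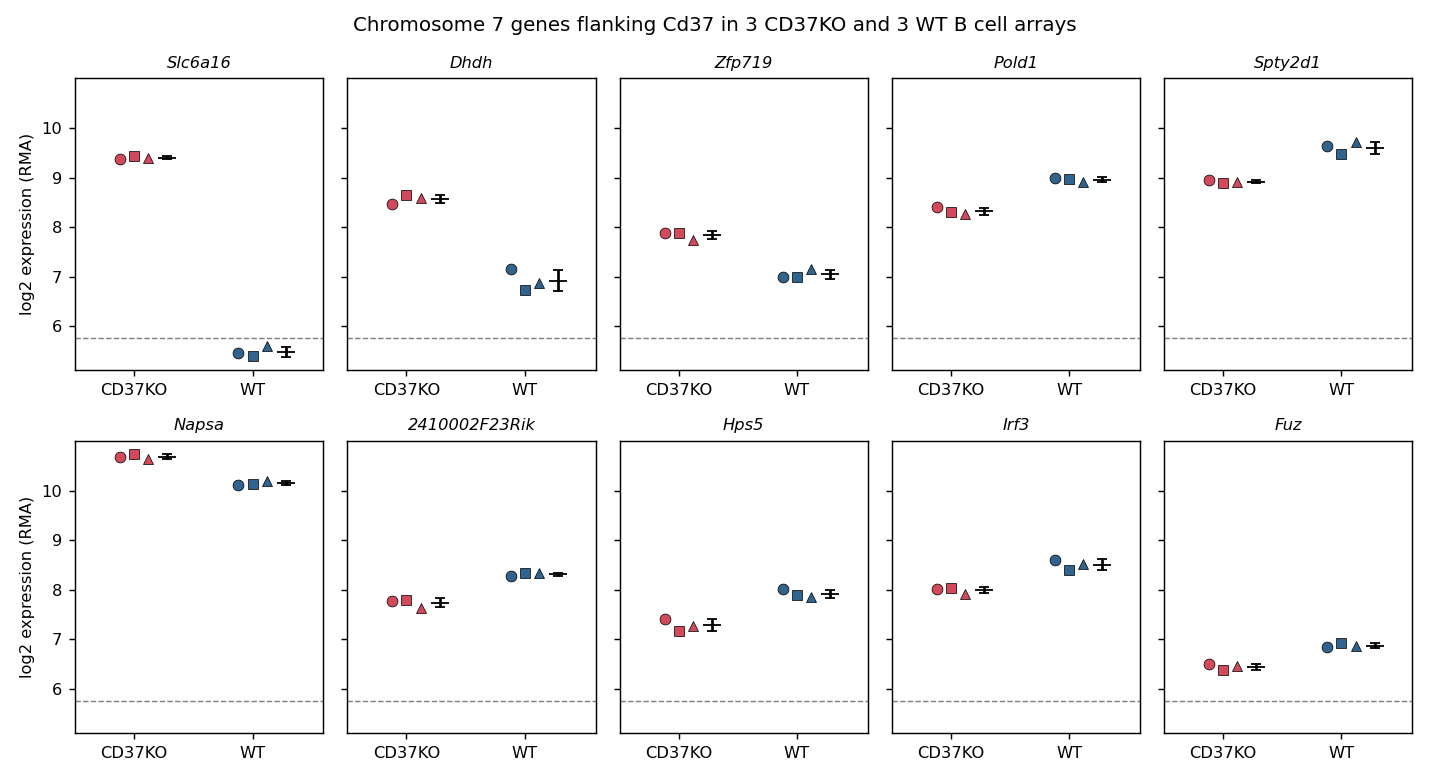
Log2 expression (RMA) of the 10 genes in 3 CD37KO (red, left) and 3 WT (blue, right) B cell arrays, with 1 symbol shape per replicate number, the mean and SD beside the points, and a dashed line at the background level of 5.77. The genotypes do not overlap for any of the 10 genes, and only Slc6a16 in WT lies under the dashed line.

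Slc6a16 and Dhdh showed the largest differences. Slc6a16 encodes an orphan member of the SLC6 family, the sodium-coupled carriers of neurotransmitters and amino acids. It was at 9.38, 9.43 and 9.39 in CD37KO against 5.46, 5.40 and 5.60 in WT. All 3 WT arrays were below background and all 3 CD37KO arrays were far above it. The mean was 9.40 ± 0.029 in CD37KO and 5.49 ± 0.10 in WT (n = 3 each), a difference of 3.91 (standard error 0.07). Because WT was not above background, the difference is given as a bound, with CD37KO at least 12.4-fold higher than WT. The bound was 7.97-fold with a stricter background from the 99th percentile of those receptors (6.40), and none could be given with the 90th (5.47), which 1 WT array exceeded.

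Slc6a21, the next gene beyond Slc6a16 and another SLC6 family gene, was not above background in any array, with 5.30, 5.36 and 5.21 in CD37KO and 5.30, 5.34 and 5.32 in WT. Its difference of -0.029 was smaller than its standard error of 0.063 (adjusted p = 0.932 from limma). Slc6a16 thus lay between Cd37, with a difference of -3.80, and a gene not above background in either genotype. Of 19 other SLC6 genes measured, 3 were above background in all arrays, 0 passed an adjusted or an unadjusted p under 0.05, and their median difference was -0.039. Slc6a9, a glycine transporter, had 6.27, 5.86 and 6.13 in CD37KO and 5.82, 6.00 and 5.81 in WT, which overlap.

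Dhdh encodes dihydrodiol dehydrogenase, an enzyme of the metabolism of aromatic hydrocarbons. It was at 8.47, 8.64 and 8.58 in CD37KO against 7.16, 6.74 and 6.87 in WT. Every array was above background, and the lowest CD37KO array was 1.31 above the highest WT array. The means were 8.56 ± 0.084 in CD37KO and 6.92 ± 0.21 in WT (n = 3 each), a difference of 1.64 (standard error 0.11) or 3.11-fold. On one side of it, Ftl1, the ferritin light chain, was at 11.85 ± 0.17 in CD37KO and 11.78 ± 0.051 in WT (n = 3 each). On the other side, Tulp2, whose annotated span overlaps that of Dhdh, was below background in all 6 arrays, with a difference of -0.022. Among 21 aldo-keto and carbonyl reductase genes and related enzymes, 5 were above background in all arrays and 0 passed an adjusted p under 0.05. Only Akr1e1 passed an unadjusted one, with 6.14, 5.63 and 6.07 in CD37KO and 5.67, 5.61 and 5.59 in WT.

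Napsa, Hps5 and Fuz act in the secretory and lysosomal pathways or at the cilium. Napsa encodes napsin A, an aspartic protease best known from lung and kidney. It was at 10.68, 10.73 and 10.64 in CD37KO against 10.12, 10.13 and 10.19 in WT. The arrays of a genotype lay within 0.096 of each other in CD37KO and 0.07 in WT, and the genotypes did not overlap. The difference was 0.54 (standard error 0.061), with CD37KO at 1.45-fold the WT level. Of 13 other aspartic protease genes, 7 were above background in all arrays and 0 passed an adjusted p under 0.05. Cym, which encodes chymosin, was the only one past an unadjusted p under 0.05, as 5.95% of all genes were. Its difference was -0.25 (adjusted p = 0.801 from limma), and it was above background in 0 CD37KO arrays and 2 WT arrays. Ctsd, the lysosomal protease cathepsin D, had a difference of 0.55, as large as that of Napsa, but its arrays overlapped, at 10.94, 9.75 and 10.98 in CD37KO and 10.41, 9.75 and 9.86 in WT (adjusted p = 0.801 from limma).

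Hps5 encodes a subunit of BLOC-2, which sorts cargo to lysosome-related organelles and is disrupted in Hermansky-Pudlak syndrome. It was at 7.41, 7.18 and 7.27 in CD37KO against 8.01, 7.90 and 7.86 in WT, with no overlap. The difference was -0.64 (standard error 0.079), which put CD37KO at 0.641 of the WT level. Other genes of this pathway were read beside it. Since Hps5 was picked for its difference, no comparison of sizes is drawn. Of 22 genes of the BLOC and AP-3 complexes and their relatives, 18 were above background in all arrays, 0 passed an adjusted or an unadjusted p under 0.05, and the differences ranged from -0.11 to 0.16. Hps3, which encodes another BLOC-2 subunit, was at 9.87 ± 0.074 in CD37KO and 9.97 ± 0.071 in WT (n = 3 each). Ap3d1, the delta subunit of AP-3, was at 10.24, 10.23 and 10.21 in CD37KO against 10.32, 10.38 and 10.29 in WT, a small difference of -0.11 without overlap.

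Fuz encodes a planar cell polarity effector needed to assemble cilia. It had the smallest difference of the 10, with 6.50, 6.39 and 6.46 in CD37KO against 6.84, 6.93 and 6.86 in WT. The genotypes did not overlap, and the difference was -0.43 (standard error 0.063), with CD37KO at 0.744 of WT. With the stricter background of 6.40, 1 of its CD37KO arrays was no longer above it. Ap2a1, a clathrin adaptor gene whose annotated span overlaps that of Fuz, was at 8.62 ± 0.019 in CD37KO and 8.73 ± 0.11 in WT (n = 3 each). Med25, a Mediator subunit on the other side, was at 8.40 ± 0.11 in CD37KO and 8.27 ± 0.098 in WT (n = 3 each). Of 29 planar polarity and ciliary genes, 11 were above background in all arrays and 0 passed an adjusted p under 0.05. Ttc21b, an intraflagellar transport gene, alone passed an unadjusted one, with 6.44, 6.19 and 6.33 in CD37KO and 6.12, 6.12 and 6.1 in WT.

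Pold1, Spty2d1, Irf3 and Zfp719 encode proteins that act on DNA or chromatin. Pold1 encodes the catalytic subunit of DNA polymerase delta, which replicates the lagging strand. It was at 8.40, 8.30 and 8.26 in CD37KO against 8.99, 8.98 and 8.90 in WT. All CD37KO arrays were lower, by at least 0.50, and the difference was -0.63 (standard error 0.066), with CD37KO at 0.644 of WT. Of the other subunit genes, Pold3 and Pold4 differed by 0.0143 and 0.0525 (unadjusted p = 0.89 and 0.545 from limma). Among the other subunit genes only Pold2 passed an unadjusted p under 0.05, with higher values in CD37KO, and it did not pass an adjusted one. Pold2, the accessory subunit that holds the catalytic one, was at 8.97, 8.91 and 8.84 in CD37KO against 8.65, 8.57 and 8.67 in WT, a difference of 0.28 without overlap (unadjusted p = 0.00249, adjusted p = 0.801 from limma). Of 21 genes of the replicative polymerases, their clamp and its loader, all above background in every array, 0 passed an adjusted p under 0.05. Pold2 and the clamp loader subunit Rfc3 were the 2 with higher values at an unadjusted p under 0.05, with 0 on the lower side. Over all genes 2.96% were higher and 2.99% lower at that threshold. The median difference of the 21 genes was 0.055.

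Spty2d1 encodes SPT2, a histone chaperone of transcribed genes. It was at 8.96, 8.89 and 8.91 in CD37KO against 9.63, 9.47 and 9.71 in WT. The CD37KO arrays were closer to each other (range 0.071) than the WT arrays (range 0.24), without overlap. The difference was -0.68 (standard error 0.075), with CD37KO at 0.623 of WT, the largest difference below 0 among the 10 genes. Of 20 histone chaperone and elongation genes, all above background in every array, 0 passed an adjusted p under 0.05. Set, a histone chaperone of the nucleosome assembly family, was the only one past an unadjusted p under 0.05, with 7.33, 7.15 and 7.41 in CD37KO and 6.97, 7.05 and 7.04 in WT (adjusted p = 0.801 from limma).

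Irf3 encodes the transcription factor that is activated by sensors of viral nucleic acid and switches on interferon beta. It was at 8.02, 8.03 and 7.92 in CD37KO against 8.61, 8.40 and 8.52 in WT. The genotypes did not overlap, with a gap of 0.37, and the means were 7.99 ± 0.056 in CD37KO and 8.51 ± 0.11 in WT (n = 3 each). The difference was -0.52 (standard error 0.073), with CD37KO at 0.698 of WT. Of the genes beside it, Bcl2l12 had a difference of -0.12 and Scaf1 of -0.14, both with overlap.

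Genes that work with IRF3 were read in 3 lists, and none of their genes passed an adjusted p under 0.05. Of 10 other IRF family genes, all above background in every array, only Irf1 passed an unadjusted p under 0.05, with 9.37, 9.28 and 9.48 in CD37KO and 9.06, 9.06 and 9.28 in WT. Irf7, which acts with IRF3, was at 9.62 ± 0.16 in CD37KO and 9.49 ± 0.035 in WT (n = 3 each). Over all genes, 2.96% gave higher and 2.99% lower values at an unadjusted p under 0.05. Among 17 genes that activate IRF3 or regulate its activation, 3 gave higher and 0 lower values at that threshold. These were Dhx58 and Ifih1, which encode RNA sensors of the RIG-I family, and Ikbke, a kinase of IRF3. Ifih1 was at 7.35, 6.70 and 7.32 in CD37KO and 6.96, 6.56 and 6.49 in WT, which overlap.

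Target genes of IRF3 had a median difference of 0.12 over 13 genes, 11 of them above background in all arrays. Higher values at an unadjusted p under 0.05 were found for 5 of them and lower values for 0. Over all genes the shares at that threshold were 2.96% higher and 2.99% lower. Usp18, which removes ISG15 from proteins, was at 7.05, 7.07 and 7.26 in CD37KO against 6.71, 6.45 and 6.72 in WT, a difference of 0.50 (unadjusted p = 0.000642, adjusted p = 0.377 from limma). Rsad2, the antiviral enzyme viperin, was at 7.15, 7.23 and 7.48 in CD37KO against 6.85, 6.72 and 6.89 in WT, a difference of 0.47 (adjusted p = 0.544 from limma). Cxcl10, a chemokine, and Ifit1, an antiviral RNA-binding protein, also showed no overlap, with differences of 0.68 and 0.26 (both adjusted p = 0.801 from limma). Irf3 gave lower values in CD37KO, and these 4 target genes, those of the list with the smallest p, gave higher ones. Some others of the list were lower, and its differences ran from -0.15 to 0.68. The lowest was that of Ifnb1, the interferon beta gene (-0.15, unadjusted p = 0.0827 from limma). No target gene passed the adjusted test. Cxcl10 and Ifih1 were lowest in replicate 2 among the CD37KO arrays, the array in which the macrophage and monocyte and the neutrophil markers were also lowest. Usp18 and Rsad2 were lowest in replicate 1. The part of macrophages, monocytes and neutrophils in the values of the target genes was not tested.

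Zfp719 encodes a zinc finger protein of a large family with many members on chromosome 7. It was at 7.89, 7.88 and 7.75 in CD37KO against 6.99, 7.0 and 7.16 in WT. The genotypes did not overlap, and the difference was 0.79 (standard error 0.075), with CD37KO at 1.73-fold the WT level. Zfp658, the measured gene next to it, had values of 6.02, 6.03 and 5.86 in CD37KO against 5.47, 5.34 and 5.59 in WT, above background in all 3 CD37KO arrays and in 0 of the WT arrays (difference 0.51, adjusted p = 0.268 from limma). Zfp819, on the other side, was not above background in any array, with a difference of -0.038. Of 85 other Zfp genes measured on chromosome 7, 7 were higher and 4 lower without overlap, against 4.33% higher and 7.57% lower of all genes. Of these 85, 0 passed an adjusted p under 0.05, and the median difference was 0.0026.

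The gene 2410002F23Rik, for which no role is given here, was at 7.78, 7.80 and 7.64 in CD37KO against 8.27, 8.33 and 8.33 in WT. The genotypes did not overlap, and the difference was -0.57 (standard error 0.066), with CD37KO at 0.675 of WT. It alone of the 10 genes had 2 probe sets. The other probe set had values of 7.88, 8.0 and 7.81 in CD37KO and 7.90, 8.16 and 8.07 in WT, which overlap, with a difference of -0.15. All 12 of its nearest annotated probe sets by number named genes of chromosome 3, while all 11 of those nearest to the brighter probe set named genes of chromosome 7. The mean of both probe sets gave a difference of -0.36. Acp4, whose annotated span overlaps that of 2410002F23Rik, was below background in all 6 arrays.

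**Figure D2:**
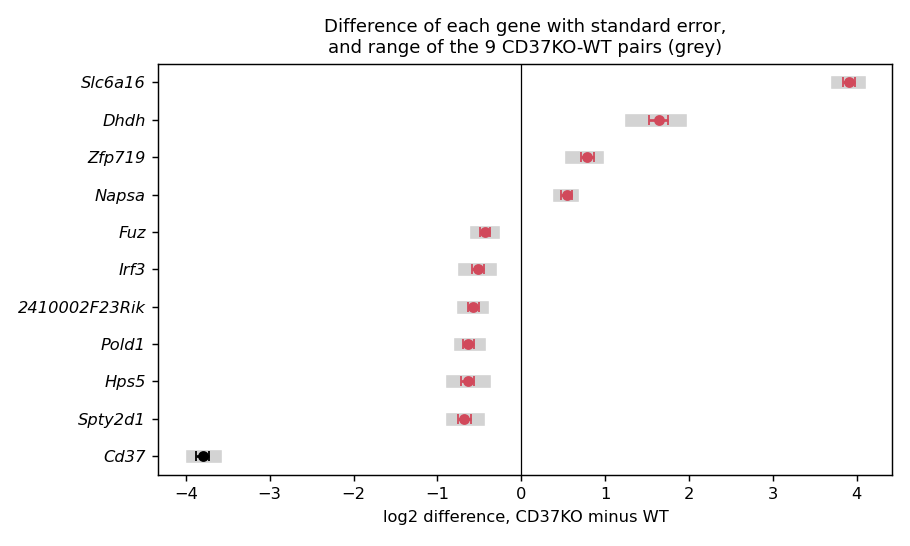
Log2 difference, CD37KO minus WT, of the 10 genes and Cd37 (black), with the standard error from the fit over all genes as error bars and the range of the 9 pairs of a CD37KO and a WT array in grey. No grey range reaches 0, and the sizes run from 0.43 for Fuz to 3.91 for Slc6a16 among the 10 genes.

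**Figure D3:**
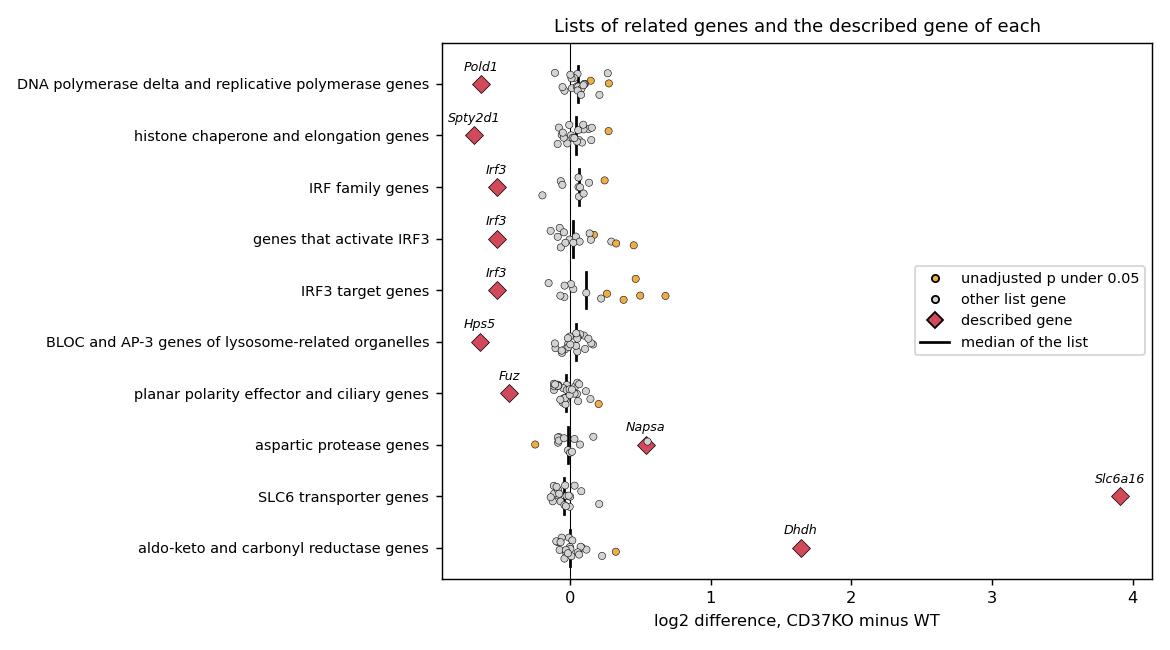
Log2 difference, CD37KO minus WT, of each gene in 10 lists of related genes (circles, orange at an unadjusted p under 0.05, black bar at the median of the list) and of the described gene that belongs with the list (red diamond). The described genes were picked for a large difference, so their distance from the lists is no result; Irf3 is drawn in 3 lists and Napsa lies beside Ctsd.

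Taking the lists as 1 group, 185 related genes were measured and 0 passed an adjusted p under 0.05 in limma, where 0.0552% of all genes did (0.0251% higher and 0.0301% lower), and 0 in ordinary least squares. The unadjusted threshold was passed by 14 with higher and 1 with lower values in CD37KO, or 8.11% against 5.95% of all genes (2.96% higher and 2.99% lower). That count of 15 was 24 without CD37KO replicate 2, 9 without CD37KO replicate 3 and 8 with the mean of the neutrophil markers as a covariate. The median difference of the 185 genes was 0.0078.

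In gene order the 10 genes were spread over a wide stretch of chromosome 7. Counting measured genes from Cd37 toward lower coordinates, Irf3 was gene 19, Fuz gene 25, Napsa gene 37, Pold1 gene 38, 2410002F23Rik gene 51 and Zfp719 gene 80. Toward higher coordinates, Slc6a16 was gene 1, Dhdh gene 16, Hps5 gene 62 and Spty2d1 gene 69. Higher and lower genes were mixed, with 2 of 6 higher on the side of lower coordinates and 2 of 4 on the other. The pair with the largest differences, Slc6a16 and Dhdh, was within 16 genes of Cd37, and all of the others had differences under 1 in size. Pold1 and Napsa were adjacent measured genes with 1 annotated gene between them, and they differed in opposite directions, by -0.63 and 0.54.

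**Figure D4:**
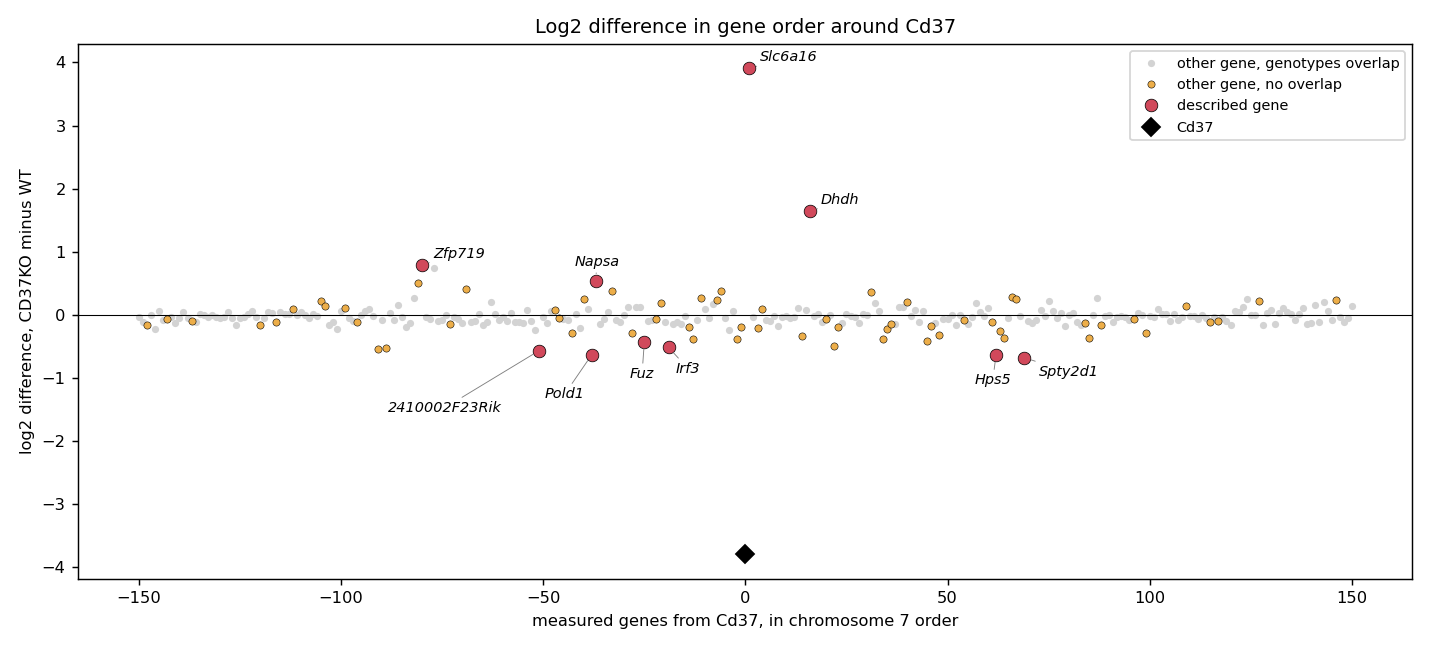
Log2 difference, CD37KO minus WT, against the position in the order of measured genes on chromosome 7, with Cd37 at 0 and lower coordinates to the left; red points are the 10 described genes, orange points other genes without overlap between the genotypes and grey points genes with overlap. Genes of either direction lie on both sides of Cd37, with many genes of overlapping values between them.

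The genes that directly flank the 10 were read next. Of 17 such genes other than Cd37 and the 10 themselves, 3 showed no overlap, against 11.9% of all genes, 6 were below background in every array and 0 passed an adjusted p under 0.05 (smallest 0.268, Zfp658). Their median size of difference was 0.10. Gtf2h1, a TFIIH subunit gene beside Hps5, was lower without overlap, at 8.78, 8.76 and 8.78 in CD37KO against 8.97, 9.24 and 8.88 in WT (adjusted p = 0.801 from limma). Spib, an ETS transcription factor of B cells beside Pold1, was at 11.88 ± 0.034 in CD37KO and 11.79 ± 0.065 in WT (n = 3 each), with overlap.

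Within 150 measured genes of Cd37 in either direction there were 290 genes outside the 10, and 60 of them (20.7%; 21 higher, 39 lower) had no overlap between the genotypes, against 11.9% of all genes. The share was 30.9% for the nearest 50 genes on each side, 18.8% for the next 50, 13.0% for the 50 after those and 11.7% for the 150 beyond them. Of the 119 genes above background in all arrays, 32 (26.9%) had no overlap, against 11.6% of all genes above background. The count of 60 was 125 without CD37KO replicate 2, when the share for all genes was 34.1%, and 120 without WT replicate 2, when it was 27.5%. For the nearest 50 the share was above that of all genes whichever array was left out, but by less without CD37KO replicate 2 (46.8% against 34.1%) than without CD37KO replicate 3 (34.0% against 17.1%) or WT replicate 2 (54.3% against 27.5%). Without CD37KO replicate 2 the shares also fell little with distance, at 46.8%, 45.8%, 37.0% and 36.3% over the same 4 bands. Neighbouring genes are not independent of each other, and these counts carry no test.

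**Figure D5:**
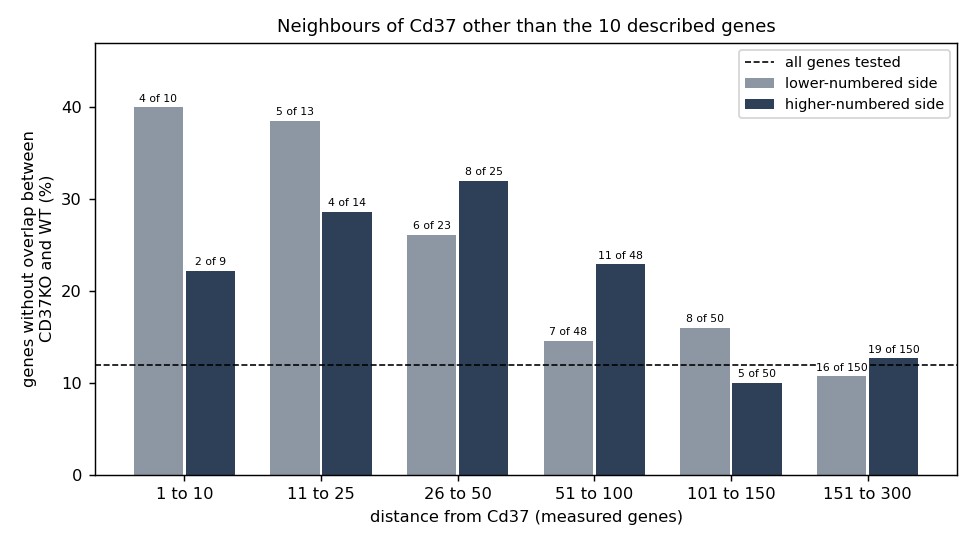
Percent of genes without overlap between CD37KO and WT among the neighbours of Cd37 that are not among the 10 described genes, by distance from Cd37 in measured genes, on the side of lower (grey) and higher (dark) coordinates, with counts on the bars and a dashed line at 11.9% for all genes tested. The bars lie between 22.2% and 40.0% within 50 genes and at 10.7% and 12.7% in the farthest band.

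Just outside the 10 genes, 6 other genes within 150 of Cd37 had a difference of at least 0.4 in size without overlap, as 0.366% of all genes did. These were Siglecg, Nkg7, Zfp658, Bcat2, Emp3 and Klk8. Siglecg, an inhibitory receptor of B cells, was at 9.76, 9.75 and 9.67 in CD37KO against 10.22, 10.26 and 10.35 in WT. It was the only neighbour outside the 10 that passed (difference -0.55, standard error 0.065, adjusted p = 0.0412 from limma), and it passed under 4 of 15 alternatives. Without each array in turn its adjusted p ranged from 0.0678, without CD37KO replicate 2, to 0.351, without CD37KO replicate 3. The difference in those fits ran from -0.58 to -0.51. Siglecg also did not pass with the mean of the neutrophil markers as a covariate (difference -0.57), or in ordinary least squares (adjusted p = 0.484). Bcat2, the mitochondrial branched-chain aminotransferase, was at 7.18, 7.06 and 7.23 in CD37KO against 7.80, 7.51 and 7.65 in WT (adjusted p = 0.344 from limma). Klk8 was near background, above it in 2 CD37KO arrays and 0 WT arrays. It differed by 0.40 with a gap of 0.072 (adjusted p = 0.801 from limma). Emp3, a membrane protein gene, differed by -0.41 with a gap of 0.045, and Nkg7, a gene of cytotoxic lymphocytes, by -0.52 with a gap of 0.028. Nkg7 is also 1 of 14 T and NK cell markers, whose mean was 6.03, 6.11 and 6.02 in CD37KO and 6.15, 6.11 and 6.28 in WT. Of these markers, 3 gave lower values in CD37KO without overlap, Nkg7 itself among them, and 0 gave higher ones. Over all genes the shares were 7.57% lower and 4.33% higher. Of the 14 markers, 0 passed an adjusted p under 0.05, while 5 were above background in all arrays and 4 in none. Their part in the value of Nkg7 was not tested.

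Neutrophil markers differed in part between the isolates. Of 18 markers, 9 gave higher values in CD37KO without overlap, against 4.33% of all genes, 9 overlapped, and 0 passed an adjusted p under 0.05, while 5 were above background in all arrays and 5 in none. Ngp, a neutrophil granule protein, was at 11.09, 9.48 and 10.56 in CD37KO against 8.34, 8.13 and 8.46 in WT. With the mean of these markers as a covariate, Slc6a16 differed by 3.92 and Dhdh by 1.73, and Pold1, Spty2d1, Hps5 and Fuz were farther from 0, at -0.70, -0.78, -0.82 and -0.50. Macrophage and monocyte markers overlapped between the genotypes, with 0 of 18 separated, and as a covariate they gave differences of 3.92 for Slc6a16, 1.62 for Dhdh and -0.53 for Irf3. All 10 genes kept their direction with either covariate. The mean of the neutrophil markers did not overlap between the genotypes, at 6.12 to 7.10 in CD37KO and 5.69 to 5.89 in WT. A fit with that covariate therefore cannot fully separate neutrophil content from genotype, and no conclusion is drawn from its values. Zfp719 was at 0.76 with the neutrophil covariate and 0.81 with the macrophage and monocyte one, and 2410002F23Rik at -0.55 with each.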

How the data were processed

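Log2 expression values per probe set were deposited by the authors for 6 arrays. The submitters' processing notes name RMA and the build mm8, and the software that ran RMA was not given in the sources used here. RMA pulls low signals together, so differences near background are compressed. Of 35361 probe sets, 21780 named a single gene, and the brightest of these on average was kept for each of 19935 genes. Symbols were checked by Entrez ID against the GRCm38.p6 gene table, which otherwise served only for gene order because its build differs.

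CD37KO was compared with WT in limma 3.58.1 under R 4.3.3, with a two-sided moderated test, Benjamini-Hochberg adjustment over all genes and a threshold of 0.05. The scripts were tested on simulated data. With so few arrays precision is limited, and an exact test of 3 arrays against 3 gives no p below 0.10. The mice are called littermates, but which of them shared a litter was not given in the sources used here, and p-values measure the spread between these mice.

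The 10 genes, the lists of related genes, the markers and the alternatives were chosen with earlier results of these data known. Named besides the 10 genes are Cd37, the measured gene on each side of each of them, the 6 most different other genes within 150 genes of Cd37 that showed no overlap, up to 4 genes of each list with the smallest p, and single markers. Ifnb1, Pold3 and Pold4 are named in addition. The alternatives were quantile normalization applied again, centring on array medians, averaged probe sets, a filter on dim genes, the replicate number as a block, marker covariates, other background levels, ordinary least squares, robust moderation with a trend, order over all annotated genes, and leaving out each array.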

Additional observations from a re-analysis of the deposited data

How the results depend on the processing

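Of 130 recomputed differences of the 10 genes, 125 moved by less than the spread between replicates, 5 moved by more and 0 reversed. These 5 were Pold1 (-0.70), Spty2d1 (-0.78), Hps5 (-0.82) and Fuz (-0.50) with the neutrophil covariate, and 2410002F23Rik (-0.36) with the mean of its probe sets. Some of the 125 could not move. The replicate block and the filter on dim genes leave a difference unchanged, as does averaging for the 9 genes with 1 probe set. Those settings show nothing about stability. All 10 genes stayed without overlap in every setting in which overlap was counted, which leaves out the covariates and the replicate block. Leaving out an array or filtering dim genes cannot create overlap, nor can averaging for a gene with 1 probe set. In those settings the outcome was fixed in advance. The number above background was 8 at the 99th percentile and 9 at the 90th. The count of other neighbours without overlap was 60 of 290 (20.7%, against 11.9% of all genes). When only genes above background could count it was 34 (11.7%), against 6.18% of all genes. With an array left out it was 75 to 125 (125 without CD37KO replicate 2, 120 without WT replicate 2). The shares of all genes then ran from 17.1% to 34.1%. With genes ranked over all annotated genes it was 41 of 167 (24.6%), against 11.9% of all genes. The count of all genes past the adjusted threshold, 11, was 2 with the neutrophil covariate, 3 with ordinary least squares and 4 to 14 with an array left out, falling to 4 without CD37KO replicate 1, CD37KO replicate 3 or WT replicate 1, to 6 without WT replicate 2 and to 5 without WT replicate 3. The replicate block gave 4. The numbers gave no sign of pairing, since deviations of same-numbered arrays correlated at 0.238, 0.00678 and -0.139, and CD37KO replicate 2 correlated best with WT replicate 3 (0.312). The related genes at an unadjusted p under 0.05, 15, were 8 with the neutrophil covariate and 9 to 24 with an array left out (9 without CD37KO replicate 3, 24 without CD37KO replicate 2), and 0 passed the adjusted threshold in every fit. Siglecg had an adjusted p of 0.219 with the replicate block. Fewer arrays or added terms leave fewer degrees of freedom, and other causes of these shifts were not tested. The neutrophil covariate also did not overlap between the genotypes, so fits with it cannot fully separate the 2. Signals near background, as for Slc6a16 in WT, give only a bound.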
